A study of Mus musculus with 6 samples.

Results

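H3K27ac, the acetylation of histone 3 at lysine 27, was followed in mouse quadriceps at 10 genes of antioxidant defence and metal binding: Mt1, Mt2, Sod1, Sod2, Cat, Gpx1, Gpx3, Nfe2l2, Keap1 and Txnip. The members were all H3K27ac peaks that the deposited tables annotated to 1 of these genes as the nearest transcription start site, whether at the promoter or far from it. They numbered 29 of the 46988 peaks in control mice and 33 of the 40721 peaks in detrained mice. All mice were male and wild type, with the strain labelled C57BL/6 for the H3K27ac libraries (C57BL/6J in the study's methods) and C57BL/7 and C57BL/8 for the input libraries, and each sample was 1 quadriceps of 1 animal. Mice were caged with or without a running wheel from 8 weeks of age. Control mice had no wheel and were sedentary. Detrained mice had free access to the wheel for 4 weeks and then rested for 72 h without the wheel before the muscle was taken. Each group had 2 H3K27ac libraries, named C2 and C3 in control and Ex1 and Ex2 in detrained mice, and 1 input library of sonicated chromatin without antibody. The comparison asked whether a difference in acetylation could still be seen after the rest.

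Metallothioneins are small cysteine-rich proteins that bind zinc and copper and whose genes are switched on by metals through the factor MTF1, which binds metal response elements. Superoxide dismutases, catalase and glutathione peroxidases remove superoxide and peroxides, which contracting muscle produces. NRF2, the product of Nfe2l2, activates antioxidant genes through antioxidant response elements and is held for degradation by KEAP1, while TXNIP inhibits thioredoxin and glucose uptake and is induced by glucose through carbohydrate response elements.

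The H3K27ac libraries held between 20805019 and 22400894 tags, the control input 10812470 and the detrained input 21298438. Peaks were called once per group on both libraries together, so the lists differ in where peaks begin and end. The signal of a peak is given as its tags in both libraries per 10000000 total tags, and its density as tags per kb of peak per 10000000 tags in each library, with 0.5 tags added. Because each table had its own normalization, the groups were not tested against each other. With 2 libraries a group the smallest two-sided p of any exact permutation test would be 0.333. Differences are therefore described by whether the detrained libraries both lay above, or both below, the control libraries. Tags were split between libraries by deposited log2 values that were regularized, which draws the libraries of weak peaks together. The SDs can therefore understate the spread between mice, and the libraries of the groups can more easily stand apart. Of markers of muscle fibres, 6 of 7 had peaks in each list, at 70.7 tags per kb in control and 69.0 in detrained mice. They summed to 4968.4 tags over 70.3 kb in control and 5318 over 77 kb in detrained mice. Among them Myh4 had 79.2 tags over 3764 bp in control and 800.4 over 10265 bp in detrained mice. Acta1, Ckm, Mylpf, Pvalb and Actn3 each held fewer tags in detrained mice. Adipocyte markers had no listed peak for any of 3 genes. Of 2 genes taken as absent outside liver, Alb had no listed peak, but Apoa1 had 8 in control and 6 in detrained mice. These held 358.89 and 375.4 tags, at 24.8 and 26.4 tags per kb. A peak annotated to a marker thus does not by itself show that its cell type was present. Leukocyte markers summed to 144.2 tags over 6.42 kb in control and 234.5 over 10.6 kb in detrained mice, with Ptprc at 0 in control and 53.5 in detrained mice, and fibroblast markers to 1567.8 over 40.4 kb and 1876.7 over 45.9 kb. Pax7, the marker of satellite cells, had 103.9 tags over 5.81 kb in control and 166.4 over 9.64 kb in detrained mice. Endothelial markers had 1650.2 and 1643.7 tags, and Schwann cell markers 93.4 and 106.6. The part of these cells in the results was not tested, and in whole muscle fewer cells of a type cannot be told apart from less acetylation per cell.

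The stretches of sequence printed here belong to regions described below, and a link between their motifs and acetylation was not tested. RefSeq sequence of GRCm38.p6, the assembly of mm10, is given for each from 5′ to 3′. A RefSeq promoter window was matched for all 10 genes, and the start sites used in the tables lay within 5 bp of the RefSeq start for 59 of the 62 listed peaks and within 20 bp for the rest. For Mt2 the 250 bases before the start (chr8:94172368-94172617, plus strand) are shown with matches to the metal response core, TGCACNC or TGCGCNC on either strand, in capitals. They held 3 matches, and 1.26% of 32851 promoter windows of the same length held 3 or more.
Mt2 promoter: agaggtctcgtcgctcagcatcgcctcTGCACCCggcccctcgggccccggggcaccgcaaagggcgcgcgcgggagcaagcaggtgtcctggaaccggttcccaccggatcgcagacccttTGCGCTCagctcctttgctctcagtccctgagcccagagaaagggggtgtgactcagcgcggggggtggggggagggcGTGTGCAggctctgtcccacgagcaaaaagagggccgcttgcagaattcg
The other stretch of the metallothionein locus is the middle 300 bases of the peak 4.7 kb downstream of the Mt1 start (chr8:94183398-94183697, plus strand), which carried the largest fold increase per kb among the shared peaks of the 10 genes. It also held 3 matches to the metal response core, again in capitals, and 1.29% of the middle 300 bases of all shared peaks held 3 or more. Most of it lies in the non-coding gene Gm39228 (chr8:94183419-94184982).
Mt1 downstream region: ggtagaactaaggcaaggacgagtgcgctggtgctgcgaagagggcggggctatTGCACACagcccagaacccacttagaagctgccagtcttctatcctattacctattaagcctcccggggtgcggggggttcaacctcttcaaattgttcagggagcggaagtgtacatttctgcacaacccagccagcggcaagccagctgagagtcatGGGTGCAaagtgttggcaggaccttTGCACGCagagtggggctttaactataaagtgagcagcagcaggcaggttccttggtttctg
For Txnip the 250 bases before the start (chr3:96557707-96557956, plus strand) are shown with a pair of CACGNG motifs 5 bases apart, the form of a carbohydrate response element, in capitals. Such a pair, searched on both strands, was found in 0.0457% of the promoter windows. The window lies within the non-coding gene Gm15441 (chr3:96555768-96566801), which overlaps Txnip.
Txnip promoter: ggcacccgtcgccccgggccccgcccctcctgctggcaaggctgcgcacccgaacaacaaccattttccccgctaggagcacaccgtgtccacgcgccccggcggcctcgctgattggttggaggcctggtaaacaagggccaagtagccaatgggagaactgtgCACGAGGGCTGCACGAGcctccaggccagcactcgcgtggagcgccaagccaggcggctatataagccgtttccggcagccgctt
The last is the middle 300 bases of the peak 5.2 kb upstream of Gpx3 (chr11:54897736-54898035, plus strand), an intergenic region with the largest fold decrease in tags per peak among the shared peaks of the 10 genes. Neither the metal response core nor the antioxidant response core, TGACNNNGC on either strand, matched these letters, so none are in capitals.
Gpx3 upstream region: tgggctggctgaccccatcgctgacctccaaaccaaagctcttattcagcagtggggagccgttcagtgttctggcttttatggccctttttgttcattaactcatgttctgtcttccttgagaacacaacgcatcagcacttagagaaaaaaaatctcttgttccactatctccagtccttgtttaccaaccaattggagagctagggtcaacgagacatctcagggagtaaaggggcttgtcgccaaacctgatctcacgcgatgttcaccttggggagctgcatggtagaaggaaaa
Elsewhere, the antioxidant response core lay in the 250 bases before the start of Mt2, Sod1 and Nfe2l2, with 1 match each, against 10.2% of all promoter windows. It was not matched before the start of Cat, Gpx1, Gpx3, Keap1, Sod2, Mt1 or Txnip. The 250 bases before the start of Mt1 held 1 metal response core, and 21.4% of promoter windows held at least 1. The middle 300 bases of its start-site peak, which reach past the start, held 5, and 0.0567% of the middle 300 bases of all shared peaks held 5 or more.

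Every one of the 10 start sites lay in a listed peak of both groups. In control mice the Txnip start lay in a peak annotated to Gm15441, so that 9 start-site peaks belonged to the genes themselves, against 10 in detrained mice. The start-site peaks were dense, with a median percentile of 96.1 among all peaks of the control list and also 96.1 in the detrained list. The lowest were Mt2 at 74.8 in control and Gpx3 at 58.9 in detrained mice. Start-site peaks of other genes were not set beside them. The remaining 20 control and 23 detrained peaks had median percentiles of 54.9 and 54.5. Peaks of the 10 genes had a median signal of 95 tags in control and 87.1 in detrained mice, and the median of all peaks was 45.5 and 57.9.

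Of the 29 control peaks, 3 overlapped no detrained peak, and of the 33 detrained peaks, 5 overlapped no control peak. The background was 27.9% of all control and 18.0% of all detrained peaks. Pairs of a control and a detrained peak that each covered 50% or more of the other, with no second partner that did so (shared pairs), numbered 22 at the 10 genes. In 7 of them the detrained libraries both lay below the control libraries, and in 4 they both lay above, against 27.2% and 21.3% of all 26432 shared pairs. With at least a 1.5-fold difference the counts were 2 lower, at Keap1 and upstream of Gpx3, and 1 higher, downstream of Mt1, against 2.06% and 1.10% of all pairs. The median log2 ratio of detrained over control density was -0.03 for the 22 pairs and -0.03 for all pairs. A density depends on the called length of the peak. Over the 22 pairs, the log2 ratio of density and the log2 ratio of length had a correlation of -0.56, and over all shared pairs of -0.51 (Pearson's r, a description over pairs that share libraries and whose densities are divided by these lengths). Of the 11 pairs whose libraries did not overlap, 6 had the same direction in tags per peak. When overlapping peaks were merged into clusters and their tags divided by the same length in both groups, with bases outside a called peak adding none, the detrained libraries lay below in 11 of 25 clusters of the 10 genes and above in 6, against 29.5% and 28.2% of 31776 clusters. The median log2 ratio with this common length was -0.14 for the 25 clusters and -0.01 for all clusters.

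**Figure D1:**
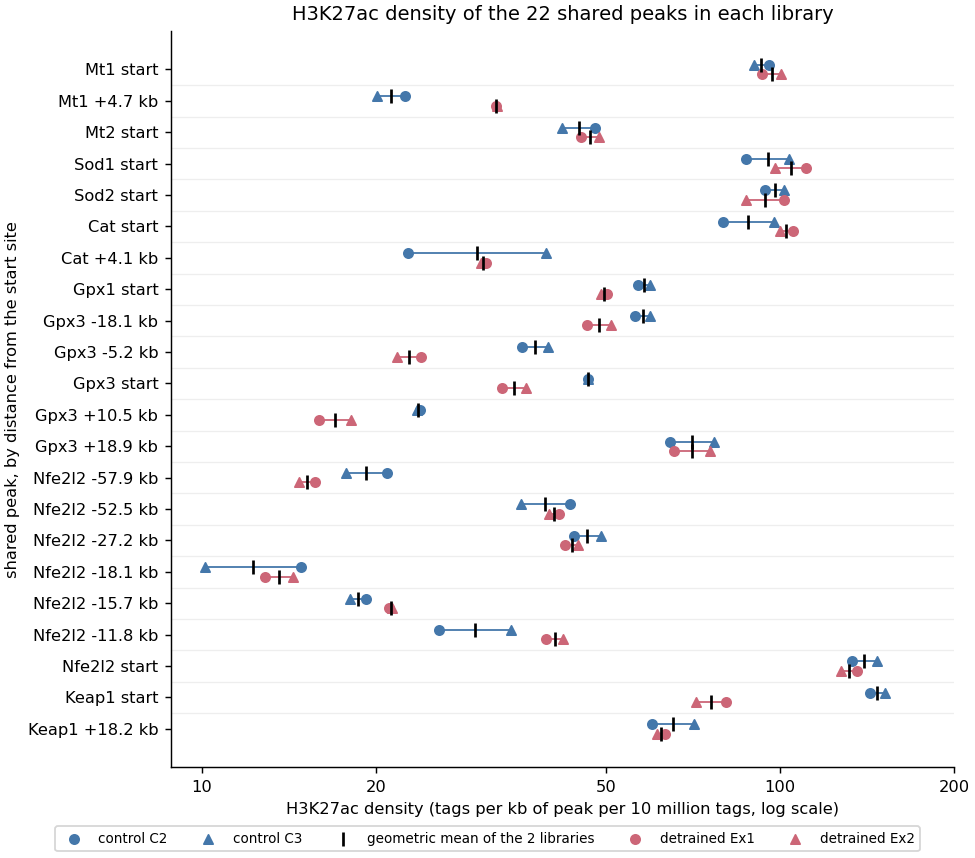
H3K27ac density (tags per kb of peak per 10000000 tags, log scale) of the 22 shared peaks of the antioxidant and metallothionein genes, named by gene and distance from the start site. Circles and triangles are the 2 libraries of control (blue) and detrained (red) mice, joined by a line, with a bar at their geometric mean, and the groups stand clearly apart at Mt1 4.7 kb downstream, Gpx3 5.2 kb upstream and the Keap1 start.

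**Figure D2:**
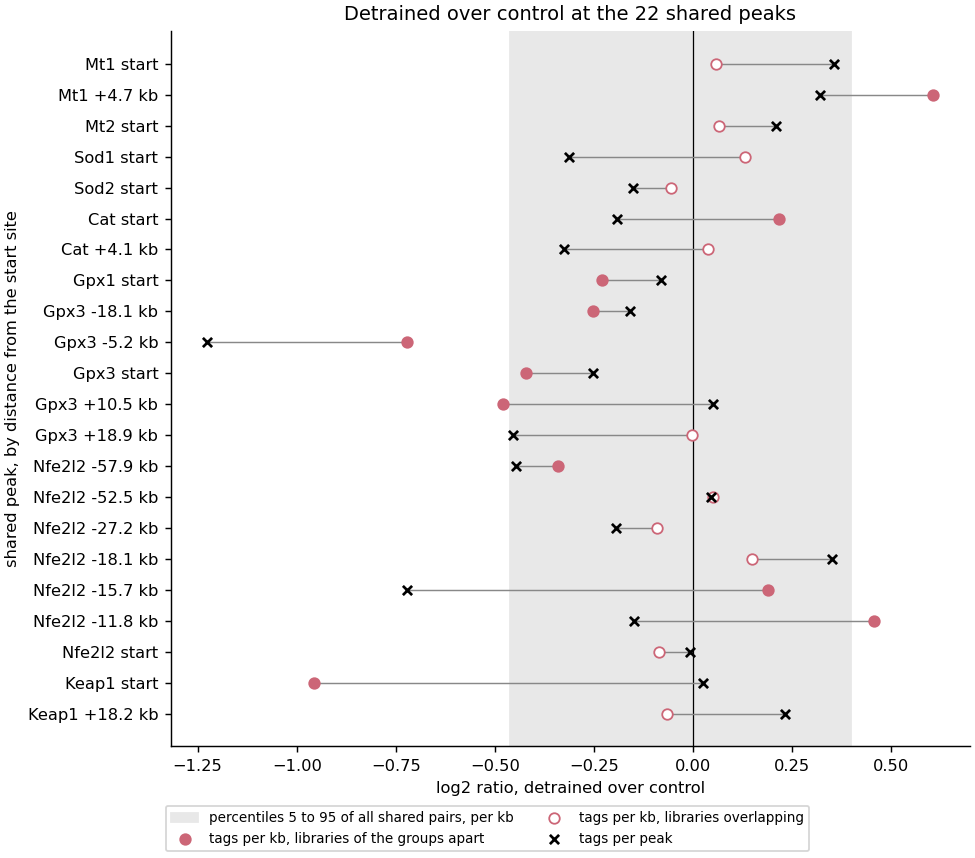
Log2 ratio of detrained over control at the same 22 shared peaks, in tags per kb (circles, filled where the libraries of the groups did not overlap) and in tags per peak (crosses). The grey band spans percentiles 5 to 95 of all shared pairs, from -0.46 to 0.40, and the distance between circle and cross is the difference in called peak length, widest at the Keap1 start.

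All 3 shared peaks of the metallothionein genes held more tags in detrained than in control mice. Mt2 (chr8:94172618-94173567) and Mt1 (chr8:94178883-94180327) encode the broadly expressed metallothioneins. The start sites used in the tables lay 6471 bp apart, that of Mt1 at 94179089, inside the bounds of the gene. At the Mt1 start, the peak held 168.6 tags over 1816 bp in control and 216.0 tags over 2231 bp in detrained mice. Density there was 95.7 and 90.2 in C2 and C3 against 93.1 and 100.5 in Ex1 and Ex2 tags per kb, and the groups overlapped (log2 ratio 0.06). Divided by one common length, the Mt1 start-site region had densities of 77.0 and 72.6 in control and 92.0 and 99.3 in detrained libraries, which did not overlap (log2 ratio 0.36). At the Mt2 start the peak held 131.5 tags over 2929 bp in control and 152.0 over 3237 bp in detrained mice, with densities of 47.8, 42.0, 45.3 and 48.6 in C2, C3, Ex1 and Ex2. These overlapped as well (log2 ratio 0.07), and divided by a common length they were 42.4 and 37.3 in control against 44.5 and 47.6 in detrained libraries (log2 ratio 0.21). The higher signal at both starts thus lay in longer called peaks of overlapping density.

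Downstream of Mt1, in the region shown above with 3 metal response cores, density was 22.5 in C2 and 20.1 in C3, and 32.2 in Ex1 and 32.4 in Ex2. Both detrained libraries lay above both control libraries, and the log2 mean was 4.41 ± 0.12 in control and 5.02 ± 0.0070 in detrained mice (SD, n = 2 libraries per group), a ratio of 0.61 or 1.52-fold. These SDs come from regularized values and can understate the spread between mice. In tags per peak the ratio was 0.32, from 42.1 to 52.6 tags. Further downstream the detrained list held peaks at 8.0 kb and 11.1 kb from the Mt1 start with 61.2 and 51.0 tags, where the control list held none. They lay at percentiles 96.2 and 93.8 of the signal of the detrained peaks that overlapped no control peak. The control list in turn held a peak at 15.2 kb with 34.8 tags, at percentile 88.0 of the control peaks without a detrained partner. A peak missing from a list was not called there, which does not show that the signal was absent. Over all listed peaks of Mt1 and Mt2 the signal was 377.0 tags over 8250 bp in control and 532.8 tags over 11878 bp in detrained mice, at mean densities of 45.7 and 44.9 tags per kb. Mt3, the metallothionein best known from brain, had no listed peak in either group. Mt4, known from squamous epithelia, had 1 shared peak with densities of 29.2 and 27.9 in control and 23.8 and 26.1 in detrained libraries, in the other direction than its neighbours (log2 ratio -0.20), though in tags per peak it was 0.21.

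**Figure D3:**
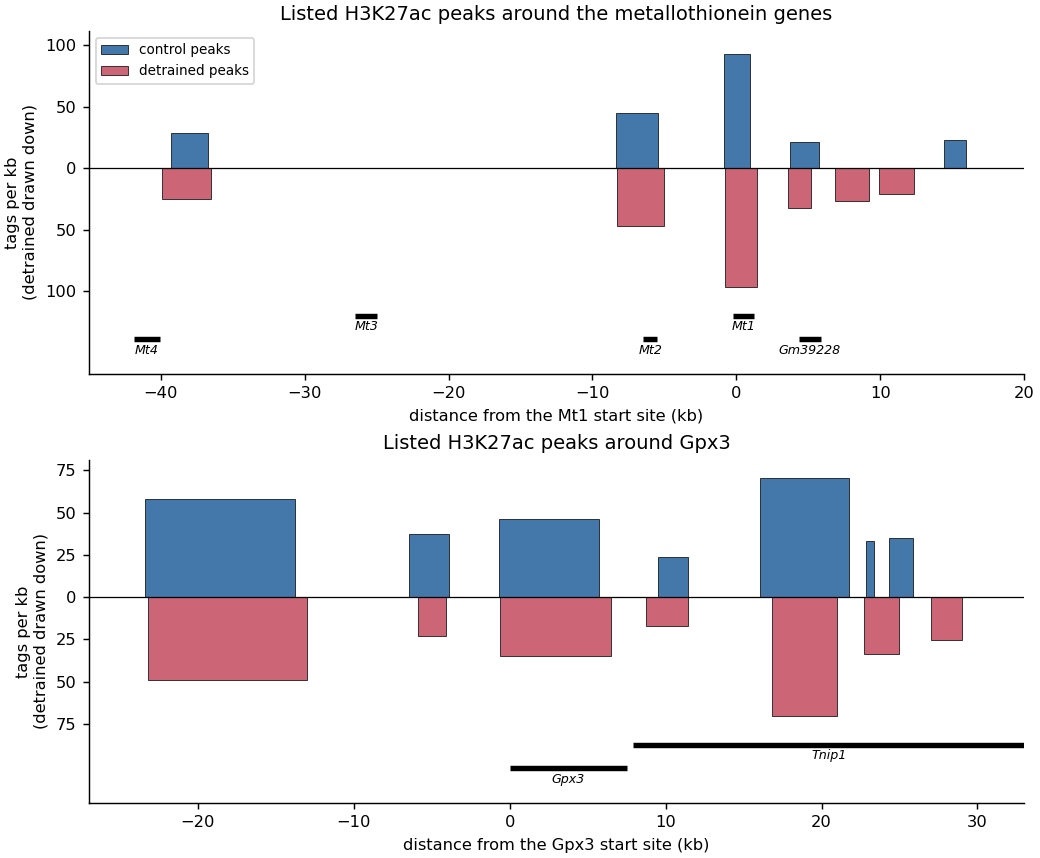
Listed H3K27ac peaks around the metallothionein genes and around Gpx3, by distance from the Mt1 and Gpx3 start sites (kb). Each box is a called peak, as wide as it was called and as high as its density in tags per kb (geometric mean of 2 libraries), control upward in blue and detrained downward in red, with black bars for genes. Peaks 8.0 and 11.1 kb downstream of Mt1 are listed only in detrained mice, and the box 5.2 kb upstream of Gpx3 is lower and narrower there.

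Sod1, the cytosolic superoxide dismutase that uses copper and zinc, had a start-site peak with densities of 87.4 and 103.8 in C2 and C3 against 110.9 and 98.1 in Ex1 and Ex2. The groups overlapped (log2 ratio 0.13). In tags per peak it was lower in detrained mice, at 262.2 over 2748 bp against 211.1 over 2027 bp. Divided by a common length, the densities were 87.4 and 103.8 in control and 81.8 and 72.4 in detrained libraries, which turned the direction and set the libraries apart (log2 ratio -0.31). The detrained list alone held a weak peak of 16.7 tags 22.9 kb upstream of Sod1. Sod2, the mitochondrial dismutase that uses manganese, had densities of 94.2 and 101.8 in control and 101.8 and 87.4 in detrained libraries, which overlapped (log2 ratio -0.05). With a common length the libraries of Sod2 still overlapped (log2 ratio -0.15).

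Cat encodes catalase, which breaks down hydrogen peroxide in peroxisomes. Its start-site peak had densities of 79.6 and 97.7 in C2 and C3 against 105.2 and 100 in Ex1 and Ex2, so that the detrained libraries exceeded both control libraries (log2 ratio 0.22, log2 means 6.46 ± 0.21 and 6.68 ± 0.051, SD, n = 2). The detrained peak was shorter, 1863 against 2464 bp, and held fewer tags, 190.7 against 217.9. Divided by a common length, the detrained libraries lay below the control libraries (log2 ratio -0.19), so the direction at Cat turned with the length used. In the gene, 4.1 kb after the start, densities were 22.7 in C2 and 39.4 in C3, the widest gap between control libraries on the log2 scale among the 22 pairs, and 31.0 and 30.4 in detrained mice between them. The control list alone held a weak peak of 5.66 tags 28.6 kb upstream of Cat.

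The start-site peaks of both glutathione peroxidase genes, whose products reduce peroxides with glutathione, were less dense in detrained mice. Gpx1, the cytosolic selenoenzyme, had 1 shared peak over the whole gene, with densities of 56.8 and 59.5 in C2 and C3 against 50.2 and 49.0 in Ex1 and Ex2. The detrained libraries both lay below the control libraries (log2 ratio -0.23), in tags per peak the ratio was -0.08, and with a common length the libraries still did not overlap. Gpx3 (chr11:54902854-54910387) encodes the secreted peroxidase of plasma. At its start-site peak densities were 46.5 in both C2 and C3, 33.1 in Ex1 and 36.4 in Ex2, a log2 ratio of -0.42 or 1.34-fold lower, and the signal was 296.8 against 249.1 tags.

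The largest fold difference in tags among the shared pairs was at the intergenic peak 5.2 kb upstream of Gpx3, whose middle is printed above. It held 95 tags over 2524 bp in control and 40.6 tags over 1788 bp in detrained mice. Density was 35.7 and 39.8 in C2 and C3 against 24.0 and 21.8 in Ex1 and Ex2. The detrained libraries were both the lower ones, and the log2 mean was 5.24 ± 0.11 in control and 4.51 ± 0.097 in detrained mice (SD, n = 2), a ratio of -0.72 or 1.65-fold lower per kb and of -1.23 in tags per peak. A broad peak 18.1 kb upstream of Gpx3, annotated to Hint1 in the control list, had densities of 56.2 and 59.7 in control and 46.4 and 51.0 in detrained libraries (log2 ratio -0.25). Beyond the end of Gpx3 the peaks lie in Tnip1 (chr11:54910787-54962956), a neighbouring gene, and are Gpx3 peaks only by nearest start. The peak at 10.5 kb had densities of 23.8 and 23.5 in control and 15.9 and 18.1 in detrained libraries (log2 ratio -0.48), but its tags were 44.3 and 45.9, so the lower density came with a longer detrained peak. At 18.9 kb densities were 64.6 and 76.8 against 65.6 and 75.6, which overlapped (log2 ratio -0.0010), with 404.8 tags over 5732 bp in control and 295.7 over 4180 bp in detrained mice. With a common length the detrained libraries there were both lower (log2 ratio -0.46). Control peaks of 16.5 and 53.6 tags matched a single detrained peak of 76.7 tags, with common-length densities of 21.8 and 22.6 against 23.0 and 25.5 on the higher side (log2 ratio 0.12), and a detrained peak of 50.1 tags 28.0 kb downstream overlapped no control peak.

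Nfe2l2 had the most listed peaks, 8 in control and 12 in detrained mice. NRF2 is the chief activator of antioxidant genes. Its start-site peak ranked 469 of all control peaks by signal and 421 of all detrained peaks, with 792.8 and 789.0 tags. Density was 133.2 and 147.2 in C2 and C3 against 136.1 and 127.7 in Ex1 and Ex2, and the groups overlapped (log2 ratio -0.09). Within the gene, 1 control peak of 937.6 tags over 19015 bp was listed as 4 separate peaks in detrained mice. As a cluster their densities were 45.5 and 50.5 in control and 42.3 and 42.2 in detrained libraries (log2 ratio -0.18), with both detrained libraries below.

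Upstream of Nfe2l2, 6 shared peaks lay between 11.8 and 57.9 kb from the start. At 11.8 kb densities were 25.7 and 34.3 in control and 39.5 and 42.2 in detrained libraries, above both control libraries (log2 ratio 0.46), and at 15.7 kb 19.2 and 18.0 against 21.1 and 21.3 (log2 ratio 0.19). Both turned to the other side in tags per peak, with log2 ratios of -0.15 and -0.72, and the detrained peaks were shorter. The peak at 57.9 kb was lower by both measures, with densities of 20.9, 17.8, 15.7 and 14.7 in C2, C3, Ex1 and Ex2 (log2 ratio -0.34). At 18.1, 27.2 and 52.5 kb the libraries overlapped, with log2 ratios of 0.15, -0.09 and 0.05. With a common length those at 18.1 kb stood apart on the higher side (log2 ratio 0.37) and those at 27.2 kb on the lower side (-0.19). A peak of 10.2 tags at 20.7 kb was listed in detrained mice alone.

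Keap1 showed the largest difference per kb of the 22 pairs and almost none in tags. KEAP1 is the sensor that marks NRF2 for degradation until oxidants modify its cysteines. Density at its start-site peak was 142.9 and 152.1 in C2 and C3 against 80.7 and 71.5 in Ex1 and Ex2, a log2 ratio of -0.96. The detrained peak was called over 5201 bp and the control peak over 2632 bp, and they held 394.8 and 387.8 tags. With the small control peak of 9.28 tags that also overlaps the detrained one and a common length, densities were 70.1 and 74.5 in control and 76.4 and 67.7 in detrained libraries, which overlapped (log2 ratio -0.01). The peak 18.2 kb downstream had densities of 59.98, 70.98, 63.3 and 61.3 in C2, C3, Ex1 and Ex2, which overlapped as well (log2 ratio -0.07). In tags per peak it was higher (0.23), and with a common length densities were 48.6 and 57.6 in control and 63.3 and 61.3 in detrained libraries, which stood apart (0.24).

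**Figure D4:**
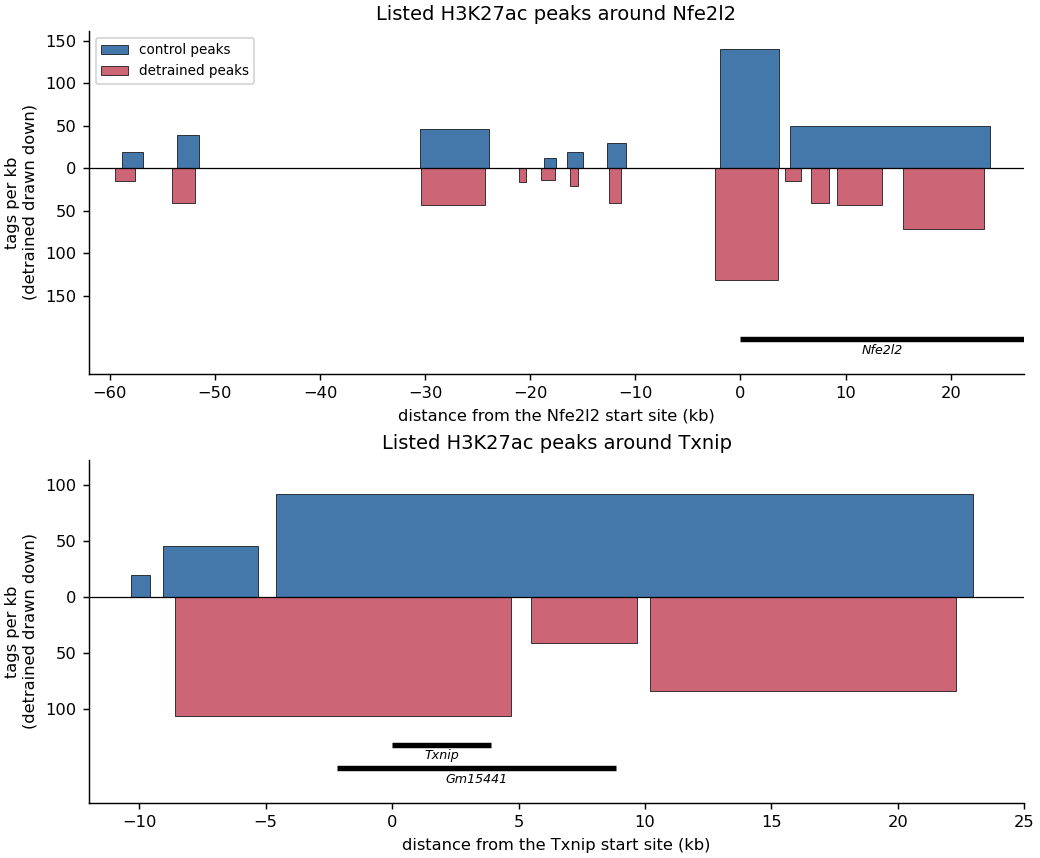
Listed H3K27ac peaks around Nfe2l2 and Txnip by distance from each start site (kb), drawn as boxes as wide as the called peak and as high as its density in tags per kb (geometric mean of 2 libraries), control upward in blue and detrained downward in red. Black bars are genes, and Polr3gl, from 19.9 kb downstream of Txnip, is not drawn. The single broad control peak in Nfe2l2 stands opposite 4 detrained peaks, and at Txnip the lists cut the same acetylated domain at different places.

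Txnip (chr3:96557957-96561857) lay in the domain with the most tags of the 10 genes. In detrained mice its start-site peak held 1413.3 tags over 13270 bp and ranked 96 of all peaks by signal. In control mice the start lay in a peak of 2554.0 tags that was annotated to Gm15441 and ran on to 23.0 kb downstream, and a peak of 174.7 tags 7.2 kb upstream was annotated to Txnip. No pair was shared one to one, so the domain was compared as a cluster of 2 control and 3 detrained peaks, with 2728.7 and 2594.4 tags over a common 32033 bp. Part of this cluster lies beyond both Txnip and Gm15441 and reaches into Polr3gl, a gene that begins 19.9 kb downstream on the map. A detrained peak of 1012.4 tags, from 10.2 to 22.3 kb, lies in that part. Density of the cluster was 74.4 and 96.3 in C2 and C3 against 82.3 and 79.8 in Ex1 and Ex2 (log2 ratio -0.06). The detrained libraries lay between the control libraries, and the ratio was -0.25 without C2 and 0.12 without C3. Another control peak of 14.9 tags 9959 bp upstream overlapped no detrained peak.

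By density of the start-site peaks in control mice, the order was Keap1 (geometric mean 147.4 tags per kb), Nfe2l2 (140.0), Sod2 (97.9), Sod1 (95.3), Mt1 (92.9), Cat (88.2), Gpx1 (58.1), Gpx3 (46.5) and Mt2 (44.8), with Txnip outside the order for its domain of several peaks. Keap1 and Nfe2l2 overlapped in their libraries, and so did each neighbour from Sod2 to Cat and Gpx3 with Mt2, whereas Nfe2l2 and Sod2, Cat and Gpx1, and Gpx1 and Gpx3 did not. In detrained mice Nfe2l2 was first (131.9), followed by Sod1 (104.3), Cat (102.5), Mt1 (96.7), Sod2 (94.3), Keap1 (76.0), Gpx1 (49.6), Mt2 (46.9) and Gpx3 (34.7). Neighbours from Sod1 to Sod2 overlapped and the others did not. Gpx3 thus came after Mt2, and Keap1, with its longer called peak, after Sod2.

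Of 54 other genes of the same pathways, 50 had a peak in both lists, 3 (Mt3, G6pdx and Prdx5) in neither and Cybb in 1 list alone. Their 108 shared pairs had a median log2 ratio of -0.02, with 29 below and 26 above, close to the shares of all pairs, and with the libraries apart 1 was at least 1.5-fold higher and 0 lower. That pair lay 20.8 kb upstream of Xdh, the gene of xanthine dehydrogenase, and is named for its value, with densities of 30.1 and 32.96 in control and 56.0 and 49.2 in detrained libraries, but 199.3 tags over 6328 bp against 176.1 over 3361 bp. Taking the densest pair of each of the 49 genes with one, 20 lay below and 10 above (40.8% and 20.4%), against 29.0% and 22.1% of the densest pairs of all genes. All 20 of the lower peaks were called longer in detrained mice, and 8 of the 10 higher ones shorter, and of the 30 together 15 kept their direction in tags per peak. The highest were Hmox1, the haem oxygenase induced by NRF2 (45.1 and 36.1 against 53.6 and 53.8, log2 ratio 0.41), Gstp1, a glutathione transferase (59.0 and 69.0 against 85.8 and 72.0, 0.30), and Bach1, a repressor of NRF2 targets (81.4 and 99.9 against 120.1 and 101.5, 0.29). Of these, Gstp1 was lower in tags per peak (-0.24). The lowest were Nqo1, a quinone reductase and standard NRF2 target (63.6 and 69.6 against 48.0 and 43.8, -0.54), Mgst1, a membrane glutathione transferase (52.8 and 53.1 against 39.0 and 35.8, -0.50), and Txn1, cytosolic thioredoxin (98.8 and 116.0 against 78.4 and 77.6, -0.46). In tags per peak Nqo1 was also lower (-0.39), while Mgst1 was at -0.11 and Txn1 at 0.06. Hmox1 was at 0.14 in tags per peak, so that Hmox1 and Nqo1, both NRF2 targets, lay on opposite sides by both measures.

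**Figure D5:**
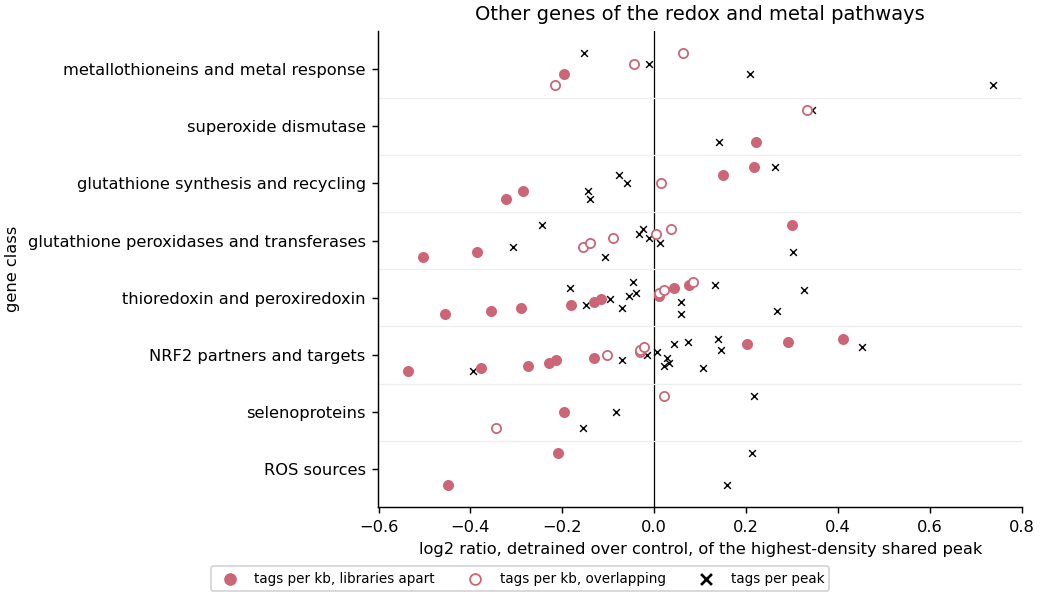
Log2 ratio of detrained over control for the densest shared peak of 49 other redox and metal genes, by class, in tags per kb (circles, filled where the libraries of the groups did not overlap) and in tags per peak (crosses). Circles run from -0.54 at Nqo1 to 0.41 at Hmox1, and for all 20 filled circles on the lower side the cross lies to the right, at a higher ratio.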

How the data were processed

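H3K27ac ChIP-seq and input libraries of quadriceps were sequenced by the authors, aligned to mm10 with Bowtie (version 1.2 in the submitters' processing notes) and analysed with HOMER, which made a single peak list for a group from its pooled H3K27ac libraries and its input. The deposited pooled signal of a peak is its tags (coverage) in both libraries per 10000000 total tags. Beside it the authors deposited, for each library, a DESeq2 regularized log2 value normalized to total tags within the table, which brings the libraries of weak peaks closer together. The tables hold no counts per library, so pooled tags were shared out in proportion to library total and 2 to the power of the log2 value. Further columns hold the authors' comparison of each peak with input (a fold change and p-values) and were left out. The control columns are named C2 and C3 and the labels number those mice otherwise, so columns were assigned to groups only. Shared pairs needed at least 50% of each peak covered, and a gene's lead pair was the densest one. Of the other pathway genes, the 3 highest and 3 lowest lead pairs with libraries apart were named. The 10 genes and the lists were chosen with earlier results of these data known. The pairing of peaks, the densities and the comparison of libraries were tested on simulated peaks of the same length in both groups. Clusters, motif matches and differences in called length were not simulated. Python 3.11.15, numpy 2.4.6, pandas 2.3.3, pysam 0.24.0 and matplotlib 3.10.9 were used. Alternatives covered normalization, length, overlap, clusters, centring, pseudocount, a signal threshold and leaving out each library.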

Additional observations from a re-analysis of the deposited data

How the results depend on the processing

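Counts of peaks kept within 1.5 times of 29 and 33 with a signal of at least 30 tags (23 and 27). Without any second overlapping peak allowed there were 21 pairs, and the Keap1 start-site pair was not among them. Requiring 80% coverage of each peak gave 11 pairs in place of 22, of which 3 lay below and 0 above. The pairs at the Keap1 start, 5.2 kb upstream of Gpx3 and 4.7 kb downstream of Mt1, which passed 1.5-fold, were not among these 11. With clusters of overlapping peaks 11 lay below. The median log2 ratio of -0.03 became 0.023 with normalization to tags in listed peaks, -0.14 in tags per peak and -0.14 over clusters, and ranged from -0.14 to -0.015 with 1 library left out. Across the 4 fits that each left out a library, counts ranged from 8 to 12 below and from 6 to 8 above, and the pathway median of -0.02 from -0.078 to 0.029. Without control library C2 the counts were 12 below and 8 above, and without C3 9 and 8. With 1 library in a group the libraries overlap less often by construction.

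In tags per peak, among the densest pair of each gene and the pairs with libraries apart, directions reversed at Sod1 (0.13 to -0.31), Cat (-0.19), Keap1 (0.026), the Gpx3 pair 10.5 kb downstream (0.045) and the Nfe2l2 pairs 15.7 (-0.71) and 11.8 kb upstream (-0.14). As clusters, with a common length, they reversed among the same pairs at Sod1 (-0.31), Cat (-0.19), the same Gpx3 pair (0.045) and the same Nfe2l2 pairs (-0.71 and -0.14), and Keap1 moved to -0.01. The overlapping pairs at Keap1 18.2 kb downstream (0.232 in pooled tags and 0.236 as a cluster) and at Cat 4.1 kb downstream (-0.324 and -0.274) reversed as well. For a one-to-one pair both alternatives compare the same tags, those inside the called peaks, so a longer called peak gains tags by construction, and neither takes out the difference in called length. The Gpx3 pair 5.2 kb upstream stayed lower and the Mt1 pair 4.7 kb downstream stayed higher in every alternative that gave a value for them. Ratios near 0 whose libraries overlapped also changed sign, at Mt2 (-0.027 without C3), Sod2 (0.002 without C3 and 0.057 without Ex2) and the Gpx3 pair 18.9 kb downstream (from 0.002 to 0.124 in 5 alternatives). Following the other pairs than the densest one of each gene through the alternatives, and leaving out libraries at Txnip, were chosen after seeing the data.

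No paired analysis was done because control and detrained libraries came from different mice and no pairing between them was stated. The depth of the libraries is alike, but the control input was shallower than the detrained input, and 2 libraries per group limit every comparison.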
